A study of Mus musculus with 20 samples.

Results

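Type I interferon-stimulated genes are the genes a cell turns on after interferon α or β has bound its receptor, and 44 of them were followed here by symbol in mouse mammary tumors and in the cells the tumors were grown from. The list was chosen by gene name and function, with earlier results of these data known. Of the 44 genes, 42 were found among the 20188 genes of the tumor table, and all 44 among the 50667 Ensembl genes of the cell table, where *Ifi27* stood under its other symbol *Ifi27l1*. *Ifi27* and *Rnf213* were therefore analysed in the cells alone.

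Interferon α and β bind the receptor pair IFNAR1 and IFNAR2, and the kinases JAK1 and TYK2 then activate STAT2, which acts with IRF9 at a short DNA element, the interferon-stimulated response element, in the promoters of these genes. Many of the products block viruses, others sense foreign or misplaced nucleic acid, and others again carry the signal further. In Aicardi-Goutières syndrome, which mutations in the subunits of RNase H2 can cause, nucleic acid left in the cell is thought to reach the sensor cGAS, which signals through STING and IRF3 to interferon β. The comparison asks whether the same genes differ when the mouse gene *Rnaseh2c*, encoding the scaffold subunit of RNase H2, is knocked down in a breast cancer model.

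The cells were Mvt1, a metastatic mammary carcinoma line of FVB background that carries Myc and Vegf transgenes, transduced with a scramble shRNA (scr) or with sh4, an shRNA to *Rnaseh2c*, and kept under puromycin. Each group is thus a transduced population with 1 shRNA, not a panel of clones. For the tumors, 3 scr and 3 sh4 primary mammary tumors were taken 30 days after implantation in FVB mice, 1 of each group in each of 3 experiments, and mRNA was sequenced from a small section of each. For the cultured cells, total RNA of 3 scr and 3 sh4 plates was sequenced. The tumors hold host cells beside the Mvt1 cells, whose *Rnaseh2c* the shRNA does not touch, and in such bulk samples fewer cells of a type and less RNA per cell cannot be told apart. Nothing says that the plates came from separate transductions, so for the cells p-values measure the spread between plates, which may be technical.

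*Rnaseh2c* itself was at 26.9, 52.0 and 25.9 RPKM in the scr tumors and at 10.2, 22.4 and 19.8 RPKM in the sh4 tumors, where RPKM and FPKM are reads and fragments scaled to the length of the gene and the size of the library. In the cells it was at 5.83, 7.06 and 5.34 FPKM in scr and at 3.19, 5.36 and 4.28 FPKM in sh4 plates. The log2 fold change was -0.98 in tumors (standard error, SE, 0.37) and -0.48 in cells (SE 0.18), with a limma adjusted p of 0.995 and 0.236. The groups did not overlap in tumors and overlapped in the cells, where 1 sh4 plate stood at the level of the lowest scr plate. The cells had the epithelial keratins *Krt8* (269 to 349 FPKM) and *Krt18* (165 to 217 FPKM), while *Epcam* and *Cdh1* were under 0.1 FPKM in all 6 plates. Of the markers, 5 of 8 for T cells and 6 of 9 for macrophages were under 0.1 FPKM in every plate, with *Cd3e*, *C1qa* and *Emr1* at 0. The 9 macrophage markers still summed to 37.2 to 48.6 FPKM. The summed values per library ran from 399938 to 484868 RPKM in tumors and from 659082 to 864566 FPKM in cells, and the number of reads is unknown.

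Many of the genes lie next to their relatives. In the mm9 genome build, *Ifit2*, *Ifit3* and *Ifit1* sit on chromosome 19 between 34625184 and 34724499, on the same chromosome as *Rnaseh2c* (5601873 to 5603439). *Oas2*, *Oas3*, *Oas1b* and *Oas1a* sit on chromosome 5 between 121180342 and 121357536, and *Oasl2* and *Oasl1* on the same chromosome between 115346943 and 115387924. *Ifitm2*, *Ifitm1*, *Ifitm3* and *Irf7* share a stretch of chromosome 7 (148140736 to 148452380), *Ifi204*, *Ifi203* and *Ifi205* one of chromosome 1 (175677424 to 175961886), *Parp14*, *Dtx3l* and *Parp9* one of chromosome 16 (35832960 to 35972691), and *Rsad2* and *Cmpk2* one of chromosome 12 (27127618 to 27164700). Members of the IFIT, OAS1, IFITM, HIN-200 and TRIM30 families are alike in sequence, so reads may have been divided between them in a way the files do not show.

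In cultured Mvt1 cells 2 of the genes rose and 3 fell with sh4. The genes that rose were *Ifit1*, which encodes a protein that binds foreign RNA ends and blocks their translation, and *Rsad2*, which encodes viperin, an enzyme that makes a chain-terminating nucleotide. The genes that fell were *Lgals3bp*, a secreted glycoprotein that binds galectin 3, *Trim30a*, a TRIM-family ubiquitin ligase known to restrain inflammatory signaling, and *Oasl2*, a relative of the 2′-5′ oligoadenylate synthetases. Of 44 genes 41 passed the filter of a mean of 0.1 FPKM over the 6 plates, so the 5 calls are 2 higher and 3 lower among 41, at a limma adjusted p under 0.05 over all 21106 genes tested. Over all genes tested, 0.521% were called higher and 0.758% lower. *Oas2*, *Zbp1* and *Ifitm1* did not pass the filter. The median log2 fold change of the 41 genes was -0.0074, with 20 positive and 21 negative, against -0.0022 over all genes tested.

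*Ifit1* was at 0.459, 0.738 and 0.757 FPKM in scr plates 1 to 3 and at 1.69, 1.57 and 1.68 FPKM in sh4 plates 1 to 3. All sh4 plates thus held over 2 times the level of any scr plate. The mean went from 0.651 ± 0.166 to 1.65 ± 0.0666 FPKM (SD, n = 3), a ratio of 2.53, and the log2 fold change, on the scale of log2(FPKM + 0.5), which understates changes of low values, was 0.91 (SE 0.12, limma adjusted p = 0.0362). *Rsad2* was at 0.458, 0.636 and 0.626 FPKM in scr and at 1.53, 1.24 and 1.22 FPKM in sh4 plates. Its groups did not overlap either, and the highest sh4 plate was plate 1. The mean went from 0.573 ± 0.10 to 1.33 ± 0.174 FPKM (SD, n = 3), a ratio of 2.32 and a log2 fold change of 0.77 (SE 0.11, limma adjusted p = 0.0413).

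*Lgals3bp*, one of the more abundant genes of the list, was at 24.1, 23.6 and 26.2 FPKM in scr and at 17.4, 17.9 and 17.8 FPKM in sh4 plates. The sh4 plates stood close together and well under all scr plates. The log2 fold change was -0.47 (SE 0.06, limma adjusted p = 0.0311), with means of 24.7 ± 1.35 and 17.7 ± 0.279 FPKM (SD, n = 3). *Trim30a* was at 6.08, 6.83 and 6.61 FPKM in scr and at 4.52, 4.42 and 4.42 FPKM in sh4 plates, means of 6.50 ± 0.386 and 4.45 ± 0.0538 FPKM (SD, n = 3). Its groups did not overlap, and the log2 fold change was -0.50 (SE 0.06, limma adjusted p = 0.0311). *Oasl2* was at 2.21, 1.83 and 2.17 FPKM in scr and at 1.09, 1.21 and 1.31 FPKM in sh4 plates, means of 2.07 ± 0.209 and 1.20 ± 0.111 FPKM (SD, n = 3). Every sh4 plate lay under every scr plate, and the log2 fold change was -0.59 (SE 0.09, limma adjusted p = 0.0476).

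**Figure D1:**
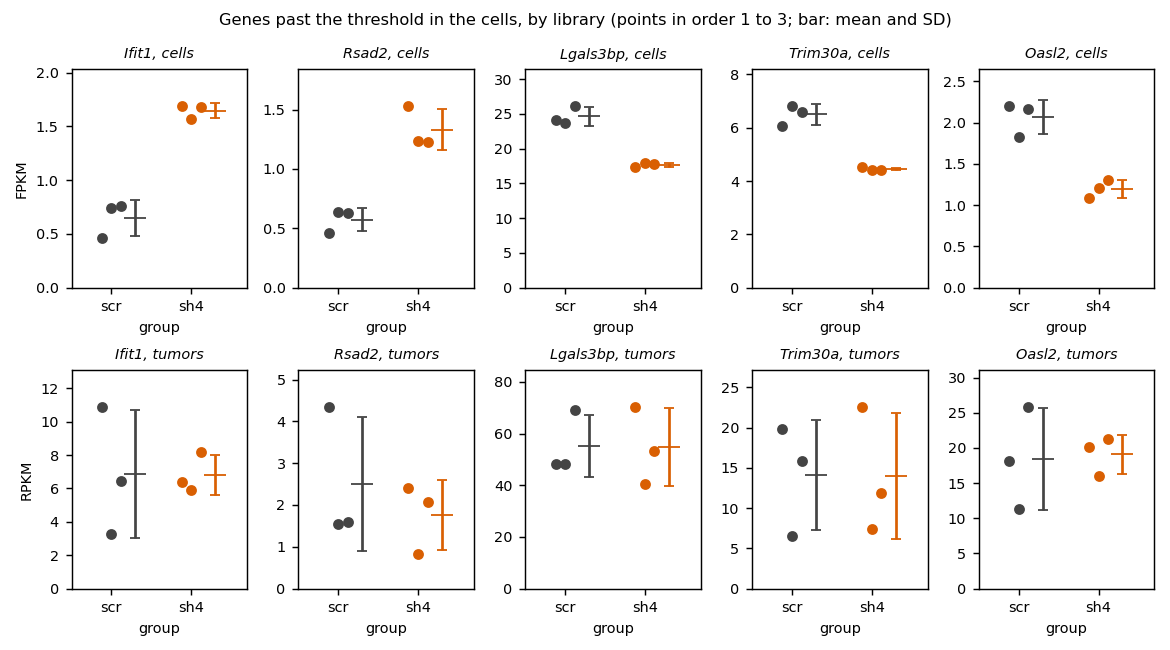
Levels of *Ifit1*, *Rsad2*, *Lgals3bp*, *Trim30a* and *Oasl2* in each cell plate (upper row, FPKM) and each tumor (lower row, RPKM), with scr in grey and sh4 in orange. Points are libraries in the order 1 to 3 and the bar beside them the mean with the SD (n = 3). In the cells the groups are apart for all 5 genes, and in the tumors they overlap for all 5.

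The 5 calls rest on all 6 plates together. Without scr plate 1 there were 3 calls (*Ifit1*, *Lgals3bp* and *Trim30a*), and without any other single plate 0 by limma. In the fits with 0 calls, 3 to 8 of 41 genes of the list were higher and 3 to 7 lower at an unadjusted p under 0.05. Of all 21106 genes tested, 1302 to 2141 were higher and 1425 to 1732 lower at that p in the same fits. The direction was kept for all 5 genes with each plate left out. With no filter on low values 1 of the 5 passed, *Lgals3bp*. In scr plate 1, 16 of 41 genes of the list had their lowest value of the 6 plates, where 33.8% of all genes tested did. Without this plate the median log2 fold change of the list was -0.081.

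To show the elements through which interferon acts on these genes, the promoter was read for each called gene that holds the core of the interferon-stimulated response element, written here as GAAANNGAA on either strand. The sequences are the 250 bases before the start site, written 5′ to 3′ on the gene's strand, from RefSeq on GRCm38.p6, and the capitals mark the matches. Those of *Ifit1* (chr19:34640639-34640888, plus strand), *Rsad2* (chr12:26456453-26456702, minus strand) and *Trim30a* (chr7:104465194-104465443, minus strand, the first of its start sites) are as follows.
*Ifit1*: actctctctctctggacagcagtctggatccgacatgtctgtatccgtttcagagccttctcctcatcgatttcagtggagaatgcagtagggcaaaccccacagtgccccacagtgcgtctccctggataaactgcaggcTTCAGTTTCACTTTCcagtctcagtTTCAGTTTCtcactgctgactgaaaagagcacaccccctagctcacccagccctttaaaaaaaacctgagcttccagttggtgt
*Rsad2*: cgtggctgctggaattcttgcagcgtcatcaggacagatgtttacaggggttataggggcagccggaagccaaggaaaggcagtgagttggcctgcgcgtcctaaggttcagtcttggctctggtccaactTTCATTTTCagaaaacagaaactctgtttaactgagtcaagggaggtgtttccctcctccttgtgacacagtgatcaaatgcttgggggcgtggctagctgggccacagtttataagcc
*Trim30a*: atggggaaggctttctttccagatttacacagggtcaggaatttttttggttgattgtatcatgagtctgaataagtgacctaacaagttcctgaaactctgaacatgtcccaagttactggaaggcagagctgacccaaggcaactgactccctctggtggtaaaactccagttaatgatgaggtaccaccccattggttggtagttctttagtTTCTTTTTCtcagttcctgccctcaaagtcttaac

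The *Ifit1* promoter holds 3 matches, which begin 109, 103 and 84 bases before the start, and the first and the second overlap. The *Rsad2* promoter holds 1 match, 119 bases before the start, and that of *Trim30a* 1 match, 35 bases before it. All of these read on the strand opposite to the gene. The windows of *Oasl2* and *Lgals3bp*, which fell, hold no match, and that of *Ifit3* holds 3. Of the 44 genes 33 had a promoter window, which runs from 250 bases before to 50 after the start, and 18 of these (54.5%) held the element, against 9.76% of 27025 genes with a window. The γ-activated site TTCNNNGAA, which reads the same on both strands and may overlap the first motif, stood in 7 of 33 (21.2%), against 9.55% of genes. Genes with and without the interferon-stimulated element stood on both sides of 0. The median log2 fold change in the cells was -0.08 for the 18 genes with it (8 positive, 10 negative) and -0.05 for the 14 tested genes whose windows lack it (5 positive, 9 negative). In the tumors the medians were 0.13 for the 18 genes (11 positive, 7 negative) and -0.03 for the 14 genes (6 positive, 8 negative). The difference between genes with and without the element was not tested. A match of letters describes the window and does not show that a factor binds there.

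With the called genes counted in, genes of the list stood apart between the plates in both directions. In 12 of 41 genes all sh4 plates lay above all scr plates, and in 12 they lay below, which is 29.3% each way. Over all genes tested the shares were 13.6% higher and 13.8% lower. At an unadjusted p under 0.05 limma gave 8 genes higher and 9 lower of 41, where 9.55% of all genes tested were higher and 9.33% lower at that p.

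**Figure D2:**
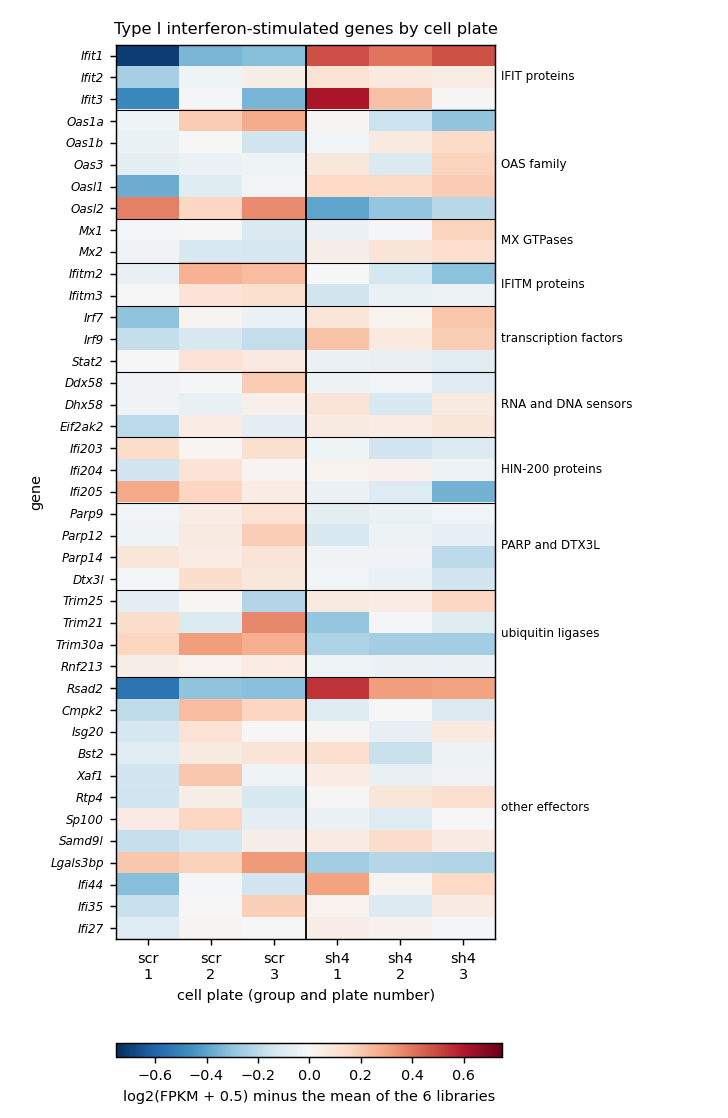
Each interferon-stimulated gene that was tested in the cells (rows, by role) in each plate (columns). Colour gives log2(FPKM + 0.5) minus the mean of the 6 plates, from blue (lower) to red (higher). The scr and sh4 plates differ most in *Ifit1*, *Rsad2*, *Ifit3* and *Oasl2*, and the PARP genes are slightly bluer in all sh4 plates.

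The IFIT genes lay higher in the sh4 plates, all 3 without overlap, where 13.6% of all genes tested lay higher in this way. For *Ifit2* and *Ifit3* the margin was narrow. *Ifit3* was at 0.301, 0.610 and 0.379 FPKM in scr and at 1.21, 0.800 and 0.623 FPKM in sh4 plates (log2 fold change 0.56, SE 0.19, limma adjusted p = 0.198). *Ifit2*, the most abundant of them, had a mean of 3.86 FPKM in scr and a log2 fold change of 0.16. The sh4 plates of *Ifit3* differed from each other by more than the group means did.

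Among the OAS family, whose enzymes make the 2′-5′ oligoadenylates that activate RNase L, the genes went different ways. Besides *Oasl2*, which fell, *Oas1a* was at a mean of 4.20 FPKM in scr with a log2 fold change of -0.29 (limma adjusted p = 0.246). *Oasl1*, a brake on the translation of IRF7, was at 0.362 FPKM with a log2 fold change of 0.32, and its groups did not overlap. *Oas1b* (1.20 FPKM, log2 fold change 0.13) and *Oas3* (3.01 FPKM, 0.10) overlapped between the groups, and *Oas2* was between 0.0732 and 0.126 FPKM in the 6 plates. The dynamin-like GTPases *Mx1* and *Mx2*, which trap viral nucleocapsids, were low at 0.273 and 0.238 FPKM in scr plates, with log2 fold changes of 0.08 and 0.18.

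Of the IFITM genes, whose products hinder the fusion of viruses with the cell membrane, *Ifitm2* and *Ifitm3* were the most abundant of the list. *Ifitm2* was at 134, 167 and 164 FPKM in scr and at 140, 127 and 113 FPKM in sh4 plates, means of 155 ± 18.3 and 126 ± 13.5 FPKM (SD, n = 3). The groups overlapped, and the log2 fold change was -0.29 (SE 0.12, limma adjusted p = 0.257). *Ifitm3* was at 93.6, 100.3 and 102 FPKM in scr and at 85.0, 90.4 and 90.9 FPKM in sh4 plates. Its groups did not overlap, and the log2 fold change was -0.15 (SE 0.06, limma adjusted p = 0.254). *Ifitm1* was at 0 in 3 of the plates and at most at 0.0411 FPKM.

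Of the transcription factors, *Irf9*, the DNA-binding part of the complex that drives these genes, came nearest to the threshold. It was at 2.26, 2.38 and 2.26 FPKM in scr and at 3.12, 2.78 and 3.05 FPKM in sh4 plates. The groups did not overlap, with means of 2.30 ± 0.0713 and 2.98 ± 0.178 FPKM (SD, n = 3) and a log2 fold change of 0.31 (SE 0.07, limma adjusted p = 0.0843). Its partner *Stat2* lay the other way, at 1.21 FPKM in scr with a log2 fold change of -0.12, and all sh4 plates were under all scr plates. *Irf7*, the factor that amplifies interferon α, was at 0.803 FPKM with a log2 fold change of 0.22, again without overlap but by a narrow margin.

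Among the sensors 0 of the 3 tested genes passed. *Ddx58*, which encodes the RNA helicase RIG-I, was at 9.61 FPKM in scr with a log2 fold change of -0.10, and its relative *Dhx58* at 1.09 FPKM with 0.03. *Eif2ak2*, the RNA-activated kinase PKR, was at 9.67 FPKM with a log2 fold change of 0.15 and no overlap, by a narrow margin. *Zbp1*, a sensor of left-handed nucleic acid, was at most at 0.0332 FPKM. The HIN-200 genes, which encode DNA-binding proteins, held 2 genes without overlap, both lower in sh4. They were *Ifi203* (6.63 FPKM in scr, log2 fold change -0.18) and *Ifi205* (0.790 FPKM, -0.33), while *Ifi204* overlapped (8.53 FPKM, 0.02).

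All 4 genes of ADP-ribosylation, *Parp9* with its partner ligase *Dtx3l*, *Parp12* and *Parp14*, were lower in every sh4 plate than in every scr plate. The margin was narrow in *Parp9*, *Dtx3l* and *Parp12*, and 13.8% of all genes tested lay lower without overlap. The scr means were 7.46 FPKM for *Parp9*, 11.3 for *Dtx3l*, 11.0 for *Parp12* and 5.82 for *Parp14*. The differences were small, with log2 fold changes of -0.09 for *Parp9*, -0.14 for *Dtx3l*, -0.15 for *Parp12* and -0.16 for *Parp14*, and 0 of 4 passed the limma threshold (1 at an unadjusted p under 0.05). Of the ubiquitin ligases beside *Trim30a*, *Trim25*, which modifies RIG-I, was at 13.7 FPKM with a log2 fold change of 0.19, *Trim21*, an antibody receptor in the cytosol, at 5.98 FPKM with -0.26, and *Rnf213* at 18.9 FPKM with -0.08. The groups of *Trim25* and *Rnf213* did not overlap and those of *Trim21* did.

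Among the other effectors, *Samd9l*, a restriction factor of poxviruses, had the third highest mean over the 6 plates, after *Ifitm2* and *Ifitm3*. It was at 19.9, 20.5 and 23.2 FPKM in scr and at 23.5, 24.7 and 23.5 FPKM in sh4 plates, means of 21.2 ± 1.73 and 23.9 ± 0.707 FPKM (SD, n = 3). The groups did not overlap, and the log2 fold change was 0.17 (SE 0.07, limma adjusted p = 0.251). *Ifi44* was at 0.266 FPKM in scr with a log2 fold change of 0.32 and no overlap. For 8 further genes the groups overlapped and the log2 fold change lay between -0.13 and 0.15. They were *Cmpk2*, the kinase encoded beside *Rsad2* (2.73 FPKM in scr, log2 fold change -0.13), the exonuclease *Isg20* (9.60 FPKM, 0.01), *Bst2*, which tethers budding viruses (16.6 FPKM, -0.05), *Xaf1* (1.33 FPKM, -0.02), *Rtp4* (0.128 FPKM, 0.15), the nuclear body protein *Sp100* (0.737 FPKM, -0.10), *Ifi35* (6.46 FPKM, -0.01) and *Ifi27* (11.7 FPKM, 0.05). *Rsad2* and *Cmpk2* are neighbours, and *Rsad2* rose while *Cmpk2* had a log2 fold change of the opposite sign that did not pass.

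In the tumors none of the genes passed. Of 42 genes, all of which passed the filter, limma called 0 at an adjusted p under 0.05, as it did over all 13487 genes tested (0%), and 1 gene, *Isg20*, which was lower, had an unadjusted p under 0.05, where 2.16% of all genes tested were higher and 2.02% lower at that p. The log2 fold changes, on the scale of log2(RPKM + 0.5), ran from -0.65 to 0.85, with 24 positive and 18 negative. Their median was 0.07, against -0.04 over all genes tested. In 1 of 42 genes all sh4 tumors lay below all scr tumors, and in 0 above, while over all genes tested 4.98% lay below and 4.19% above. With the experiment as a block, limma also called 0, and the genes with an unadjusted p under 0.05 were then 1 higher and 3 lower. Of all 13487 genes tested, 413 were higher and 498 lower at that p with the block, and 291 and 273 without it.

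**Figure D3:**
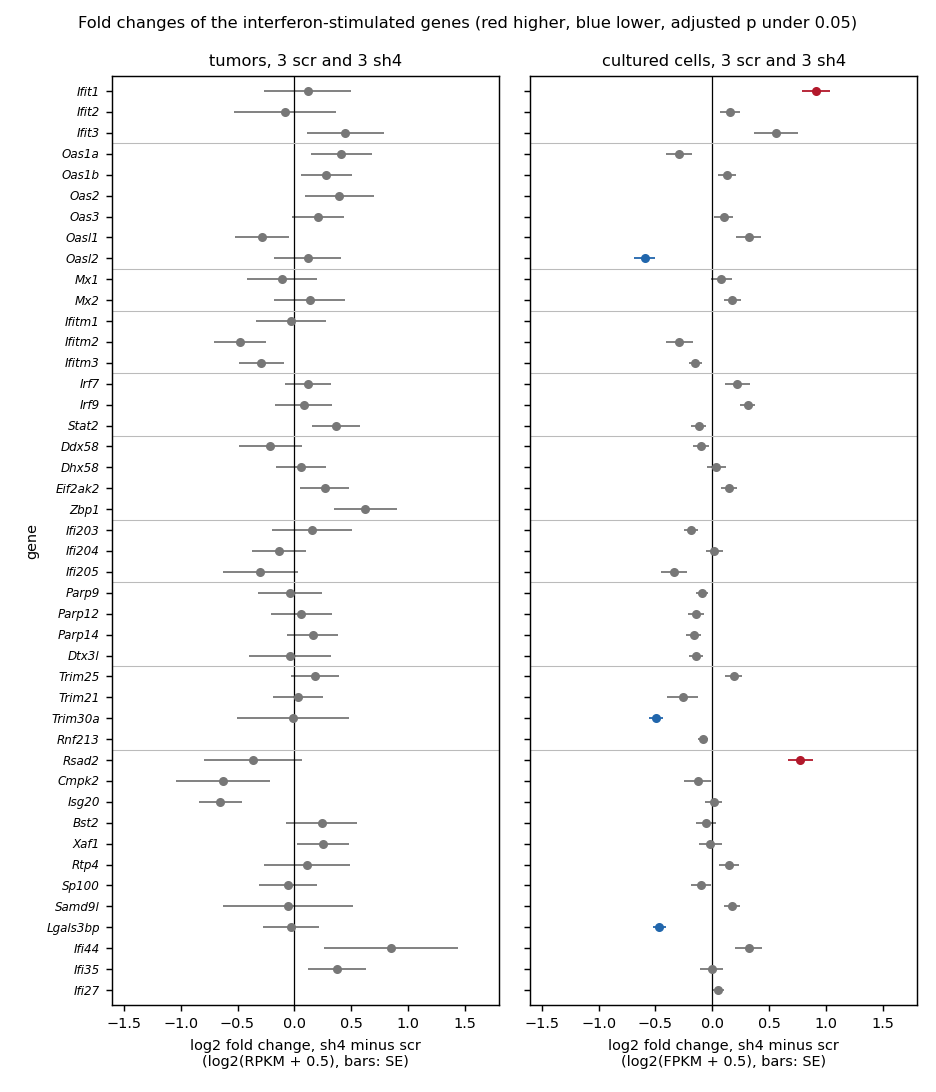
Log2 fold change, sh4 minus scr, of each interferon-stimulated gene in the tumors (left) and in the cells (right), with the SE of limma as bars (3 against 3 libraries each). Red and blue mark genes higher and lower at an adjusted p under 0.05. All tumor points are grey, with longer bars than in the cells.

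Many genes that were low in culture were well above that in the tumors, although the tables were normalized separately and the values are only set side by side. All 42 genes were above 1 RPKM in the scr tumors, while 14 genes were under 1 FPKM in the scr plates. *Zbp1* had a mean of 19.8 RPKM in scr tumors and 0.0194 FPKM in scr plates, *Rtp4* of 23.4 RPKM and 0.128 FPKM, *Oas2* of 4.04 RPKM and 0.0942 FPKM, and *Ifitm1* of 6.01 RPKM and 0.0215 FPKM. Others were of like size in both, such as *Eif2ak2*, *Parp12* and *Ddx58* at 10.3, 10.6 and 11.5 RPKM and at 9.67, 11.0 and 9.61 FPKM. The tumors also held the leukocyte gene *Ptprc*, at 6.62 to 18.6 RPKM, which was at most at 0.0143 FPKM in the plates.

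*Isg20*, an exonuclease that degrades viral RNA, showed the smallest p. It was at 37.1, 50.4 and 42.5 RPKM in scr tumors 1 to 3 and at 32.1, 24.0 and 26.3 RPKM in sh4 tumors 1 to 3. All sh4 tumors lay below all scr tumors, in each of the 3 experiments as well. The log2 fold change was -0.65 (SE 0.19, limma adjusted p = 0.995), with means of 43.4 ± 6.70 and 27.4 ± 4.16 RPKM (SD, n = 3). In the cells the same gene had a log2 fold change of 0.01.

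*Zbp1* had the next smallest p and lay the other way. It was at 22.0, 12.6 and 24.8 RPKM in scr and at 24.1, 31.6 and 33.9 RPKM in sh4 tumors. The groups overlapped, since sh4 tumor 1 stood under scr tumor 3, and the log2 fold change was 0.62 (SE 0.28, limma adjusted p = 0.995), which was 0.33 without scr tumor 2. *Stat2* was at 6.54, 5.08 and 7.31 RPKM in scr and at 7.15, 8.20 and 9.37 RPKM in sh4 tumors (log2 fold change 0.37, SE 0.21, limma adjusted p = 0.995). It too overlapped, by sh4 tumor 1 and scr tumor 3. *Oas1a* was at 33.6, 31.8 and 32.4 RPKM in scr and at 27.9, 52.5 and 56.3 RPKM in sh4 tumors (log2 fold change 0.41, SE 0.27, limma adjusted p = 0.995), so that the scr tumors were alike and the sh4 tumors lay on both sides of them. Leaving out sh4 tumor 3 brought its log2 fold change to 0.23, and leaving out sh4 tumor 1 to 0.73.

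*Ifitm2*, *Ifitm3* and *Cmpk2* lay lower in sh4 on average. *Ifitm2* was at 261, 157 and 220 RPKM in scr and at 172, 154 and 126 RPKM in sh4 tumors (log2 fold change -0.47, SE 0.23, limma adjusted p = 0.995). *Ifitm3*, the most abundant gene of the list, was at 382, 264 and 325 RPKM in scr and at 299.9, 254 and 234 RPKM in sh4 tumors (log2 fold change -0.29, SE 0.20, limma adjusted p = 0.995). In both the groups overlapped at scr tumor 2, and in each experiment the sh4 tumor was lower. *Cmpk2* was at 7.85, 2.95 and 4.60 RPKM in scr and at 4.97, 1.82 and 2.63 RPKM in sh4 tumors (log2 fold change -0.63, SE 0.41, limma adjusted p = 0.995). Its 3 experiments each gave a lower sh4 tumor, by 0.61, 0.57 and 0.70 on the log2 scale as shown in the plot by experiment. Leaving out scr tumor 1 brought the fold change of *Cmpk2* to -0.30 on the log2 scale, and leaving out sh4 tumor 1 to -0.97. *Ifitm1* was at 6.01 RPKM with a log2 fold change of -0.03. *Bst2*, the third most abundant gene, was at 128, 228 and 135 RPKM in scr and at 130, 201 and 252 RPKM in sh4 tumors (log2 fold change 0.24, SE 0.31, limma adjusted p = 0.995), and its groups overlapped over most of their range.

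The remaining genes overlapped between the groups, and for each the scr mean in RPKM is given with the log2 fold change after it. Of the IFIT genes, *Ifit1* was at 6.88 (0.12), *Ifit2* at 5.49 (-0.08) and *Ifit3* at 12.1 (0.45). Neither *Ifit1* nor *Rsad2*, which rose in the cells, passed here, and *Rsad2* was at 2.50 (-0.36). *Lgals3bp*, *Trim30a* and *Oasl2*, which fell in the cells, were at 55.2 (-0.03), 14.1 (-0.01) and 18.5 (0.12). None of these 5 differences between tumors was larger than its SE.

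Of the OAS family, *Oas1b* was at 2.36 (0.28), *Oas2* at 4.04 (0.40), *Oas3* at 4.61 (0.21) and *Oasl1* at 5.85 (-0.29), so that with *Oas1a* and *Oasl2* 5 of 6 were positive and 0 of 6 passed. *Mx1* was at 3.45 (-0.11) and *Mx2* at 5.80 (0.13). The transcription factors were all positive, with *Irf7* at 26.2 (0.12) and *Irf9* at 10.8 (0.08). Of the sensors, *Ddx58* was at 11.5 (-0.21), *Dhx58* at 8.50 (0.06) and *Eif2ak2* at 10.3 (0.26). The SEs of these factors and sensors were 0.20 to 0.28.

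Of the HIN-200 genes, *Ifi203* was at 13.2 (0.15), *Ifi204* at 37.6 (-0.14) and *Ifi205* at 30.2 (-0.30). The PARP genes, each of which was lower in the sh4 plates, lay near 0 in the tumors, with *Parp9* at 19.5 (-0.04), *Parp12* at 10.6 (0.06), *Parp14* at 6.64 (0.16) and *Dtx3l* at 6.63 (-0.04). Of the ubiquitin ligases, *Trim25* was at 7.91 (0.18) and *Trim21* at 7.07 (0.03). Of the other effectors, *Xaf1* was at 10.3 (0.25), *Rtp4* at 23.4 (0.11), *Sp100* at 23.7 (-0.06), *Samd9l* at 16.3 (-0.06) and *Ifi35* at 26.9 (0.37). *Ifi44*, named for its values, had the largest positive log2 fold change (0.85, SE 0.59) and rested on 1 tumor, since it was at 11.9, 2.13 and 13.9 RPKM in scr and at 14.2, 13.0 and 13.2 RPKM in sh4 tumors. Without scr tumor 2 its log2 fold change was 0.06.

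**Figure D4:**
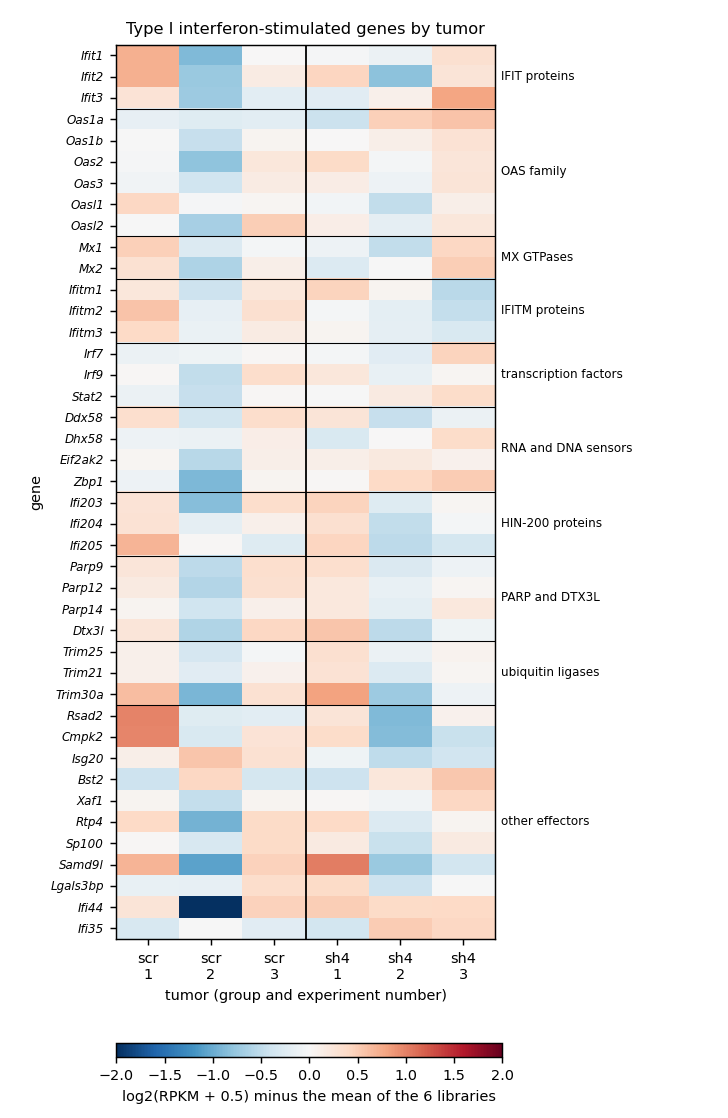
Each interferon-stimulated gene (rows, by role) in each tumor (columns). Colour gives log2(RPKM + 0.5) minus the mean of the 6 tumors, from blue (lower) to red (higher). The column of scr tumor 2 is blue for most genes and holds the darkest cell, *Ifi44*.

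Single tumors stood apart from the others of their group. In scr tumor 2, 22 of 42 genes had their lowest value of the 6 tumors, where 24.2% of all genes tested did, and the median deviation of the list from its mean was -0.40 on the log2 scale. In sh4 tumor 2, of the same experiment, 13 genes had their lowest value and the median deviation was -0.19, and 38.1% of all genes tested were lowest there. The other 4 tumors had medians from 0.10 to 0.20. Scr tumor 2 also had the most fat and the most keratin, with 7 adipocyte markers summing to 2495 RPKM against 33.0 and 261 RPKM in the other scr and 43.8 to 301 RPKM in the sh4 tumors, and with *Krt8* at 691 RPKM against 248 to 401 RPKM. The part of these cells in the values of the list was not tested. Without scr tumor 2 the median log2 fold change of the list was -0.20, and 16 of 42 genes were positive and 26 negative. Over all genes tested 37.7% were then positive, with a median of -0.09. Without any other single tumor the median of the list lay between -0.03 and 0.21, and the negative value came without sh4 tumor 1.

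Within the experiments the list had no common direction. The median difference, sh4 minus scr, was 0.03 in experiment 1, 0.22 in experiment 2 and -0.03 in experiment 3 on the log2 scale, against 0.05, -0.08 and -0.09 over all genes tested. The genes with a positive difference were 24, 26 and 20 of 42, where 57.0%, 42.1% and 41.2% of all genes tested were positive. Across the 3 experiments 7 genes were positive each time, *Oas1b*, *Oas2*, *Oas3*, *Stat2*, *Zbp1*, *Parp14* and *Trim25*, and 6 were negative each time, *Ifitm2*, *Ifitm3*, *Ddx58*, *Ifi205*, *Cmpk2* and *Isg20*. These are 16.7% and 14.3% of 42 genes, and over all genes tested 11.9% were positive and 15% negative each time.

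**Figure D5:**
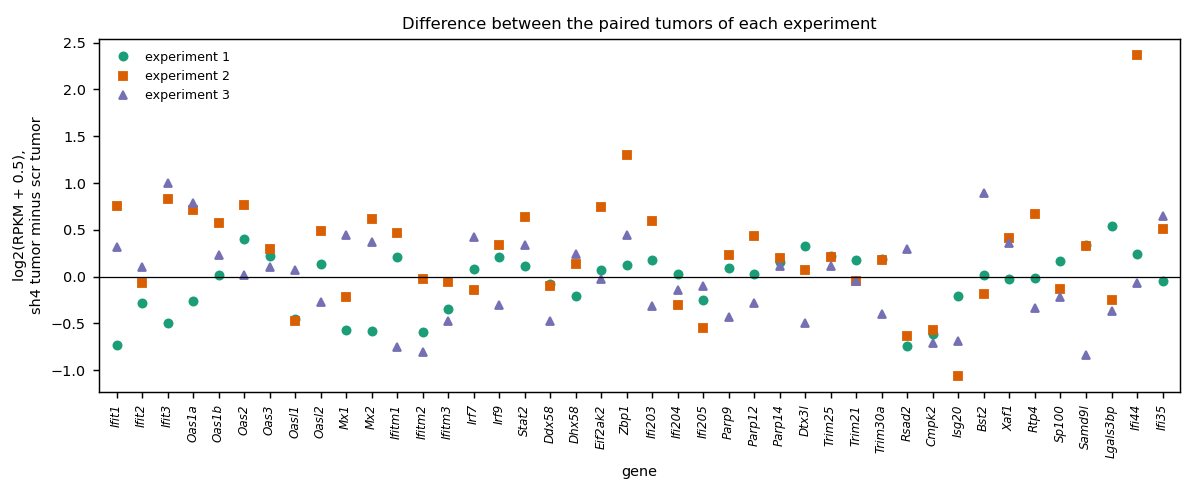
Difference of log2(RPKM + 0.5) between the sh4 and the scr tumor of the same experiment, for each interferon-stimulated gene, with 1 point per experiment. Most genes have points on both sides of 0. The highest point, 2.36 for *Ifi44*, comes from experiment 2.

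The sums of markers of some other cells differed between the groups in the tumors. The 8 T cell markers summed to 23.4 to 33.9 RPKM in scr and to 49.7 to 80.2 RPKM in sh4 tumors. None of them was under 0.1 RPKM in all tumors. Among them *Cd3e* overlapped between the groups (0.732 to 1.55 and 1.33 to 3.05 RPKM), and the others are given only in the sum. The 8 endothelial markers summed to 19.9 to 24.7 and to 25.4 to 44.0 RPKM. For 3 B cell markers the sums were 2.06 to 2.92 and 3.12 to 4.45 RPKM, with *Ms4a1* under 0.1 RPKM in all tumors. The groups overlapped for the 9 macrophage markers (1463 to 1699 and 1631 to 1962 RPKM), the 5 markers of plasmacytoid dendritic cells (6.09 to 11.1 and 8.11 to 12.1 RPKM), the 6 of neutrophils (10.8 to 17.7 and 6.40 to 20.1 RPKM), the 6 of fibroblasts (455 to 1028 and 450.3 to 1194 RPKM) and the 8 of epithelium (586 to 1106 and 415 to 745 RPKM). The part of any of these cells in the interferon-stimulated genes was not tested. In the cells the sums of the T cell, plasmacytoid dendritic cell, neutrophil, B cell and fibroblast lists stayed under 1 FPKM in every plate. The macrophage list reached 39.4 to 48.6 FPKM in scr and 37.2 to 40.5 FPKM in sh4 plates, with 6 of its 9 genes, *C1qa*, *C1qb* and *C1qc* among them, under 0.1 FPKM. The adipocyte list reached 2.73 to 2.82 FPKM in scr and 1.95 to 2.04 FPKM in sh4 plates, with 6 of 7 genes under 0.1 FPKM. The endothelial list reached 1.02 to 1.50 FPKM in scr and 0.739 to 0.917 FPKM in sh4 plates, with 5 of 8 genes under 0.1 FPKM.

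Among genes upstream of the list, 0 passed in either table. *Ifnb1*, which encodes interferon β, was listed at 0, 0 and 0.0432 FPKM in scr and at 0.120, 0.0435 and 0.107 FPKM in sh4 plates, under the filter. In the tumors it was at 0 in 4 of 6 libraries and at most at 0.0570 RPKM. The receptor genes *Ifnar1* and *Ifnar2* were at 11.0 and 3.91 FPKM in scr plates with log2 fold changes of -0.13 and -0.04, and at 7.49 and 17.2 RPKM in scr tumors with -0.11 and 0.12. In the cells the smallest p among 18 tested genes belonged to the receptor's kinases, *Jak1* (log2 fold change -0.21, limma adjusted p = 0.0955) and *Tyk2* (-0.32, adjusted p = 0.107). Both were lower in all sh4 plates. In the tumors it belonged to *Socs3*, a feedback inhibitor (-0.54, limma adjusted p = 0.995), among 17 tested genes. At an unadjusted p under 0.05 there were 2 higher and 2 lower genes in the cells and 0 in the tumors. Over all genes tested, 9.55% were higher and 9.33% lower at that p in the cells, and 2.16% and 2.02% in the tumors.

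A further 30 interferon-stimulated genes outside the list gave 0 calls by limma as well. In the cells 25 were tested, 6 positive and 19 negative, with a median log2 fold change of -0.08. At an unadjusted p under 0.05 limma gave 1 higher and 6 lower, where 9.55% of all genes tested were higher and 9.33% lower. *Ifit3b*, a close relative of *Ifit3*, was nearest to the threshold, at 0.172, 0.180 and 0.124 FPKM in scr and at 0.635, 0.442 and 0.458 FPKM in sh4 plates (log2 fold change 0.61, limma adjusted p = 0.0529). *Trim12c*, which lies near *Trim30a* on chromosome 7, followed, at 9.07, 10.0 and 10.1 FPKM in scr and at 7.60, 7.57 and 7.34 FPKM in sh4 plates (-0.35, limma adjusted p = 0.0535). Their groups did not overlap, and *Ifit3b* lay to the side of *Ifit1* and *Trim12c* to that of *Trim30a*. In the tumors 26 were tested, 17 positive and 9 negative, with 0 at an unadjusted p under 0.05. Nearest to the threshold were *Uba7*, the activating enzyme of the ISG15 modifier (log2 fold change 0.46, limma adjusted p = 0.995), and *Oas1g* (0.68, adjusted p = 0.995).

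Of the 39 genes tested in both tables, 12 were positive in both, 10 negative in both, 10 positive in the tumors alone and 7 positive in the cells alone. The tables share no sample. *Ifit3* and *Ifi44* were positive in both, and *Ifitm2* and *Ifitm3* negative in both, but none of these passed in either table.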

How the data were processed

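The tumor values are RPKM per gene, which the authors made from mRNA libraries read on a HiSeq2500 by trimming with Trimmomatic and by Tophat alignment against mm9 and Ensembl v70, with further work in the Partek Genomics Suite. The cell values are FPKM per gene, deposited for Ensembl genes and 239874 assembled loci, which were left out here. The methods name Tophat and DESeq2 for these libraries, and the submitters' processing notes name GATK, Bowtie, BWA, TopHat2 2.1.0 and STAR 2.7 with no role. Nothing gives the number of reads, so precision was judged from the spread between replicates alone, and RPKM or FPKM were not treated as counts. No 2 libraries were identical. Exome libraries of the study were not used here.

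Each table was compared by itself, 3 scr against 3 sh4 libraries, with limma 3.58.1 in R 4.3.3 on log2(value + 0.5), for genes whose 6 libraries averaged 0.1 or more, with a variance trend, Benjamini-Hochberg adjustment over all genes tested and a threshold of 0.05. The interferon-stimulated genes, the other lists and the roles were chosen with earlier results of these data known. All 44 genes are named with their level and log2 fold change. Values per library are given for genes past the threshold, those with the 6 lowest p and those with the 3 highest means in each table. Of the upstream genes and the further interferon-stimulated genes, the 2 with the smallest p are named with *Ifnb1*, *Ifnar1* and *Ifnar2*, and the marker lists are given by their sums. A further upstream gene named by this rule in the tumors and 1 marker are not reported here. *Ifit3*, *Ifi44* and the low genes were given in more detail after their values were seen.

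The experiment numbers pair the tumors by the labels. After removal of the group means, the 2 tumors of a number correlated at 0.138, 0.330 and -0.117 over genes. The plate numbers of the cells are not stated to pair anything. Coordinates in mm9 came from GENCODE vM1, and promoters from RefSeq on GRCm38.p6. Alternatives were another pseudocount (0.1 or 1), a filter at a mean of 1 or none, scaling by quantiles or by median ratios, the replicate block, no variance trend and leaving out each library. The fit was also tested on simulated data, with 50 genes per size of change. For the tumor comparison 20% of genes raised by 1 on the log2 scale were called, and for the cell comparison 42% of those raised by 0.5 and 82% of those raised by 1.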

Additional observations from a re-analysis of the deposited data

Results flagged for a closer look

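Among the interferon-stimulated genes outside the list of 44, *Uba7* and *Tdrd7* lay on opposite sides in tumors and cells, with all 3 sh4 libraries beyond all 3 scr libraries each time. Of 26 such genes tested in the tumors, 1 lay higher and 1 lower without overlap, where 4.19% and 4.98% of all genes tested did. Of 25 tested in the cells, 2 lay higher and 9 lower in this way, where 13.6% and 13.8% of all genes tested did. *Uba7* had a log2 fold change of 0.46 in the tumors and -0.40 in the cells, where it was at 1.28, 1.40 and 1.50 FPKM in scr and at 0.917, 0.834 and 1.05 FPKM in sh4 plates. *Tdrd7*, a germ granule protein that is also induced by interferon, had -0.38 in the tumors and 0.094 in the cells. The difference between tumors and cells was not tested for either gene, and 0 of these 4 values passed the limma threshold (the *Uba7* value in the cells alone had an unadjusted p under 0.05, with an adjusted p of 0.0905). With groups of 3 libraries, no library was tested as an outlier.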

How the results depend on the processing

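In the tumors every alternative that was run gave 0 calls among the 42 genes by limma, the experiment block included, while 0 to 3 genes were higher and 1 to 3 lower at an unadjusted p under 0.05. Of all genes tested (10723 to 16440), 184 to 663 were higher and 108 to 1367 lower at that p. The median log2 fold change of 0.07 lay between 0.07 and 0.15 without leaving out a library, highest with median-ratio scaling. In the cells the 5 calls became 1 with no filter and 0 with the replicate block, with which 5 genes were higher and 4 lower at an unadjusted p under 0.05, and 0 to 3 with a plate left out. With a mean of at least 1 there were 4, with quantile normalization 7, with median-ratio scaling 5 and without the trend 4. The median of the list in the cells was -0.082 with the filter of at least 1, which leaves out 10 further genes of low value, and -0.081 to 0.017 with a plate left out. The 270 calls over all genes in the cells became 77 with no filter, 408 with a mean of at least 1, 1223 with quantile normalization, 1230 with median-ratio scaling, 171 without the trend, 0 with the replicate block (1375 higher and 1438 lower at an unadjusted p under 0.05) and 2 to 248 with a plate left out. The plate numbers carry no stated pairing, and plates of the same number correlated at -0.061, -0.076 and -0.073.

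None of the 5 genes called in the cells changed sign there. Other genes did, all with adjusted p over the threshold. With quantile normalization and median-ratio scaling, the tumor values of *Ifitm1* (0.050 and 0.046), *Parp9* (0.019 and 0.038), *Dtx3l* (0.054 and 0.036), *Trim30a* (0.062 and 0.062) and *Lgals3bp* (0.032 and 0.050) turned positive, with median-ratio scaling alone also *Sp100* (0.019) and *Samd9l* (0.019). The cell values of *Ifi204* (-0.015 and -0.0048) and *Isg20* (-0.021 and -0.0085) turned negative, and with quantile normalization that of *Xaf1* (0.025) turned positive. With 1 library left out, ranges on both sides of 0 stood in the tumors for *Ifit1* (-0.30 to 0.50), *Ifit2* (-0.47 to 0.30), *Oasl2* (-0.19 to 0.39), *Mx1* (-0.35 to 0.10), *Mx2* (-0.15 to 0.32), *Ifitm1* (-0.25 to 0.23), *Irf7* (-0.071 to 0.26), *Irf9* (-0.15 to 0.28), *Dhx58* (-0.11 to 0.22), *Ifi203* (-0.24 to 0.37), *Ifi204* (-0.33 to 0.074), *Parp9* (-0.31 to 0.12), *Parp12* (-0.22 to 0.23), *Dtx3l* (-0.34 to 0.22), *Trim21* (-0.10 to 0.17), *Trim30a* (-0.47 to 0.35), *Rsad2* (-0.58 to 0.046), *Rtp4* (-0.34 to 0.34), *Sp100* (-0.23 to 0.15), *Samd9l* (-0.60 to 0.30), *Lgals3bp* (-0.23 to 0.17), *Ifnar1* (-0.29 to 0.085) and *Ifnar2* (-0.014 to 0.26), and in the cells for *Dhx58* (-0.0067 to 0.098), *Ifi204* (-0.053 to 0.070), *Isg20* (-0.047 to 0.070), *Bst2* (-0.13 to 0.017), *Xaf1* (-0.093 to 0.079), *Ifi35* (-0.093 to 0.079) and *Ifnar2* (-0.078 to 0.034). Leaving out 1 library changed the sign of 21 of 42 genes in the tumors and 6 of 41 in the cells. It moved a further 20 and 13 by over 1.5 times with the sign kept, among them in the tumors *Ifit3* (0.16 to 0.69), *Oas2* (0.095 to 0.61), *Stat2* (0.23 to 0.47), *Ifitm2* (-0.68 to -0.31), *Ifitm3* (-0.43 to -0.16) and *Bst2* (0.027 to 0.50). The cause was not tested. Without read numbers the precision of low genes such as *Ifit1*, *Rsad2* and *Ifnb1* in the cells cannot be given.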
